A study of Mus musculus with 16 samples.

Results

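The transcripts of 10 circadian clock genes were followed in the livers of 16 female C57Bl6/J mice. The genes were Arntl, Clock, Npas2, Per1, Per2, Per3, Nr1d1, Nr1d2, Dbp and Nfil3. They were chosen by symbol from the 24082 gene IDs of the normalized count table, and all 10 passed the filter on low values that left 12535 genes to be tested. The study asked how a drug against a gut microbial enzyme affects the liver under ethanol feeding. Mice aged 9 to 11 weeks received a liquid diet for 25 days, either without ethanol in pair-fed amounts (Pair) or with ethanol raised in steps to 6% by volume (EtOH). Within each diet, mice received iodomethylcholine (IMC) at 0.06% of the diet by weight, or vehicle. IMC blocks the bacterial choline TMA lyase, an enzyme that makes trimethylamine from choline. The study also reported lower food intake and body weight in mice given both IMC and ethanol. In ethanol-fed mice, IMC and lower intake therefore cannot be told apart, and the part of intake in the results was not tested. A figure legend of the study also marks a difference in body weight between Pair mice with and without IMC. Which ethanol-fed mice set the ration of each Pair group is not given in the sources used here. The part of intake or weight in the comparison of Pair IMC with Pair vehicle was not tested either. Each of the 4 groups, Pair vehicle, Pair IMC, EtOH vehicle and EtOH IMC, held 4 mice with 1 library per mouse, and mice are named here by their library number. The time of day at which livers were collected is not given in the sources used here.

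The mammalian clock is a feedback loop of transcription factors. ARNTL (also called BMAL1) pairs with CLOCK or NPAS2 and switches on the Per, Cry, Nr1d1, Nr1d2 and Dbp genes through E-box sequences. PER and CRY proteins then inhibit that pair, while the nuclear receptors encoded by Nr1d1 and Nr1d2 (REV-ERB) repress Arntl, Npas2 and Nfil3 through RORE sequences that ROR activators share. DBP activates and NFIL3 represses genes with a D-box, so that in liver the loop drives daily rhythms of metabolism, with Arntl and Npas2 peaking at about the opposite time of day to Dbp and Nr1d1.

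Between 9632659 and 12601199 reads were counted on genes in each library. The deposited values had been normalized within each diet, so they were rescaled by a median ratio over the 16 libraries, which changed no library by more than 7.12%. On the deposited scale the median gene lay 0.19 higher in EtOH relative to Pair on the log2 scale. Library numbers 1 to 8 held Pair IMC and EtOH vehicle, and numbers 9 to 16 held Pair vehicle and EtOH IMC. The difference of the IMC effects between diets is therefore the same contrast as low against high numbers, and these cannot be told apart. Each comparison of IMC with vehicle within a diet, or of EtOH with Pair within a treatment, also sets low against high numbers. There too, the effect and the numbers cannot be told apart. The averages over both diets or both treatments are balanced over low and high numbers. All Pair mice had even and all EtOH mice odd numbers, although nothing in the labels calls the numbers a batch. All 5 hepatocyte markers, including Alb, were read in every group. The summed hepatocyte markers ranged from 1030400 to 1696000 in Pair vehicle and from 1536300 to 1651400 in Pair IMC. In EtOH vehicle they ranged from 957720 to 1093100 and in EtOH IMC from 873560 to 1187900. Of the 5 hepatocyte markers, 0 passed in limma with ethanol in vehicle or in IMC mice, and 1 rose with IMC in each diet. The summed stellate cell markers ranged from 4217 to 4965 in EtOH vehicle, above their range of 2715 to 4086 over the other groups. In bulk tissue, fewer cells of a type and less RNA per cell cannot be told apart, and the part of these markers in the results on clock genes was not tested.

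Sequences through which the loop is known to act were sought in the promoters of the 10 genes, to show which arms of the loop these genes carry close to their start. The RefSeq promoter table for GRCm38.p6 held 13 windows for 9 of the 10 genes, each running from 250 bases before to 50 bases after a start. Per2 had no window and was not searched. In all, 6 windows in 5 genes held a match. The share of all promoter windows with any of the letters searched for was not counted, so nothing is read from this number. Both strands were searched for the E-box CACGTG, the related CACGTT, the RORE letters TAGGTCA and TGGGTCA, the D-box letters TTATGTAA and TTACGTAA, and the cyclic AMP response element TGACGTCA with its partial form TGACGTC, which overlaps it. The stretches below are written 5′ to 3′ on the strand of the gene, and capitals mark the match.
Per3, D-box at both places, chr4:151044786-151044900, minus strand: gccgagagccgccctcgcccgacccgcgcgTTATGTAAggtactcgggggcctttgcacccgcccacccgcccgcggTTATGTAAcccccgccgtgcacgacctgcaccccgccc
Arntl, RORE, chr7:113207530-113207558, plus strand: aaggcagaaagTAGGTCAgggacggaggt
Nfil3, RORE read on the opposite strand, chr13:52981040-52981081, minus strand: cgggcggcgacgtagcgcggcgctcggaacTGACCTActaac
Per1, E-box, chr11:69098753-69098818, plus strand: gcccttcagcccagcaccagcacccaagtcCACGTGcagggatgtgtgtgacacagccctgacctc
Per1 at its other start, partial cyclic AMP response element, chr11:69099990-69100056, plus strand: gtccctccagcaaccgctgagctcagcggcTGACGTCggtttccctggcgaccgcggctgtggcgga
Nr1d1, CACGTT read on the opposite strand, chr11:98775378-98775435, minus strand: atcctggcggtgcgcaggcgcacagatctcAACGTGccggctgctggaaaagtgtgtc
Per3 was the only one of the 9 genes searched with the D-box TTATGTAA, which it held at 198 to 205 and again at 151 to 158 bases before the start. Of 32851 promoter windows of the same length, 0.938% held TTATGTAA, 2.61% held TAGGTCA, 7.15% held CACGTG, 4.68% held CACGTT and 3.21% held TGACGTC. The other letters searched for (TGGGTCA, TTACGTAA and TGACGTCA) were in 3.98%, 0.119% and 1.79% of all windows and in no window of these genes. A match describes letters in the window and is not evidence of binding.

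The 10 genes differed widely in level. Per kilobase of exon, Nr1d1 averaged 290 normalized counts (SD 113, n = 16 mice), Nr1d2 250 (SD 80.9), Nfil3 109 (SD 34.5), Dbp 80.9 (SD 90.4), Per1 75.1 (SD 25.2), Clock 68.4 (SD 17.6), Per2 49.2 (SD 22.7), Per3 32.5 (SD 34.6), Arntl 21.7 (SD 13.3) and Npas2 8.93 (SD 10.9). The nuclear receptors were thus the most abundant and Npas2 the least, and Arntl lay above Npas2 in 16 of 16 mice. Dbp lay above Per1, its neighbour in this order, in 5 of 16 mice, Per1 above Clock in 9 and Per3 above Arntl in 8, so these neighbours did not differ beyond their spread. Depth behind these values ranged from 4 to 210 reads per library for Npas2, from 16 to 848 for Dbp, from 29 to 967 for Per3 and from 39 to 418 for Arntl, and was at least 61 for the others. No interval from read counts is given here, and the SEs and intervals below come from limma and reflect the spread between mice. Nr1d1 overlaps Thra and Dbp overlaps Sphk2 on the opposite strand, and Per3 overlaps Camta1 on the same strand. Clock overlaps Ube2n-ps1 and Gm43658 on the same strand. Npas2 overlaps Gm3617 on the same strand and Gm20428 on the opposite strand, and Arntl overlaps Gm45355 on the opposite strand. How strand was treated in the counting is not given in the sources used here, so shared reads of these pairs could not be assigned. Thra ranged from 119 to 250 and Camta1 from 30.2 to 60.9 normalized counts, while Sphk2 ranged from 288 to 740.

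The largest feature of these genes was the difference between mice of the same group. Within groups the SD of log2 values was 1.55 for Dbp, 1.51 for Npas2, 1.32 for Per3, 0.84 for Arntl and 0.73 for Per2, against a median of 0.20 and a 95th percentile of 0.62 over all genes tested. These values rank Dbp 26, Npas2 29, Per3 44, Arntl 204 and Per2 337 among the 12535 genes. The SD was 0.48 for Nfil3, 0.44 for Per1, 0.40 for Nr1d1, 0.40 for Nr1d2 and 0.33 for Clock, so that all 10 genes lay above the median gene and 5 above the 95th percentile. The 4 groups accounted for 23.2% of the variance of Npas2, 32.2% of that of Dbp and 61.0% of that of Nr1d1. The median over the 10 genes was 31.7%, against 47.0% over all genes tested. With 4 mice per group, part of such a share arises without any group effect, so these shares are a description only.

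**Figure D1:**
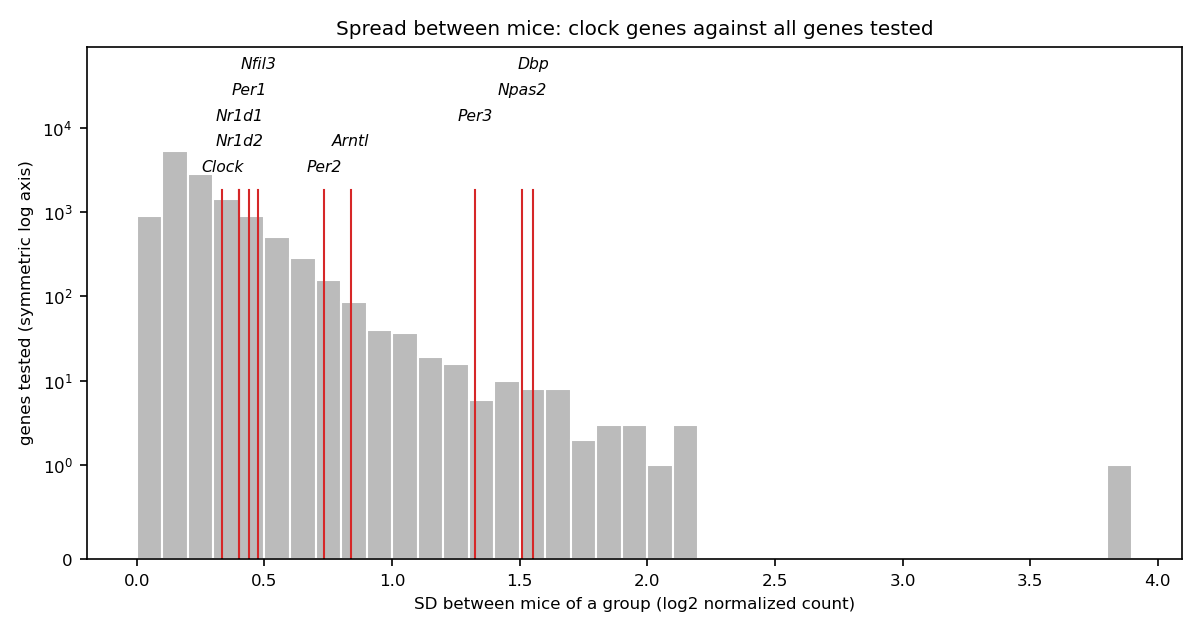
Histogram of the SD of log2 normalized counts between mice of the same group (x axis) over the 12535 genes tested (y axis, number of genes on a symmetric log axis), with a red line for each clock gene. Dbp (1.55), Npas2 (1.51) and Per3 (1.32) stand far to the right of the median gene (0.20), and Clock (0.33) is the least variable of the 10.

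Arntl, the activator that both CLOCK and NPAS2 need as a partner, had normalized counts of 173, 78.3, 45.8 and 60.1 in Pair vehicle mice 10, 12, 14 and 16. It had 136, 152, 64.2 and 304 in Pair IMC mice 2, 4, 6 and 8, and 375, 109, 315 and 94.8 in EtOH vehicle mice 1, 3, 5 and 7. In EtOH IMC mice 9, 11, 13 and 15 it had 259, 106, 155 and 184. Every pair of groups overlapped, and mouse 10 stood above the other Pair vehicle mice. Arntl was 2.37-fold higher with ethanol in vehicle mice (log2 1.25, SE 0.50), which did not pass the test in limma (adjusted p = 0.108), and its log2 difference with IMC was 0.85 (SE 0.50) in pair-fed and -0.16 (SE 0.50) in ethanol-fed mice.

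Npas2, the alternative partner of ARNTL, followed the same mice. It had 39.0, 17.6, 4.69 and 5.09 normalized counts in the Pair vehicle mice 10, 12, 14 and 16, and 9.15, 20.5, 12.03 and 83.1 in the Pair IMC mice 2, 4, 6 and 8. In the EtOH vehicle mice 1, 3, 5 and 7 it had 188, 32.1, 131 and 7.06, a 26.7-fold range in 1 group, and in the EtOH IMC mice 9, 11, 13 and 15 it had 71.4, 11.9, 19.9 and 31.2. The mean log2 level was 2.004 (SE 0.89) higher with ethanol in vehicle mice, which did not pass in limma (adjusted p = 0.152). Npas2 had as few as 4 reads in a library, so its lowest values are imprecise.

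Clock, the partner that also carries acetyltransferase activity, was the steadiest of the 10 genes. It was the only one to pass in limma with IMC in pair-fed mice, as a rise. Its normalized counts were 1056, 696, 539 and 568 in Pair vehicle mice 10, 12, 14 and 16 and 915, 1213, 1025 and 1299 in Pair IMC mice 2, 4, 6 and 8. Pair IMC was 1.60-fold higher (log2 0.68, SE 0.20, limma adjusted p = 0.0422), but mouse 10 lay within the Pair IMC range, so the groups overlapped. The exact permutation test gave p = 0.0857. Clock passed in 6 of the 13 alternative analyses, with adjusted p from 0.0211 to 0.0748, and in 7 of 16 fits with 1 mouse left out, up to 0.119 without mouse 14. In the same comparison the summed pancreas markers ranged from 125 to 157 in Pair vehicle and from 72.1 to 88.5 in Pair IMC (2 of 5 tested, and both fell), and the summed bile duct markers from 133 to 471 and from 81.9 to 119 (1 of 4 fell), and their part in the result was not tested. In ethanol-fed mice the log2 difference with IMC was -0.12 (SE 0.20), and the difference between the diets, -0.80 (SE 0.29), did not pass (limma adjusted p = 0.184).

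Per1, the period gene best known for acute induction by hormones and cyclic AMP, rose with IMC in ethanol-fed mice. Its normalized counts were 202, 323, 310 and 260 in EtOH vehicle mice 1, 3, 5 and 7 and 545, 601, 546 and 334 in EtOH IMC mice 9, 11, 13 and 15. These groups did not overlap, mouse 15 lying closest to the vehicle mice. The rise was 1.83-fold (log2 0.87, SE 0.26, limma adjusted p = 0.0254), and the exact permutation p of 0.0286 is the smallest that the 70 divisions of 8 mice allow. All 13 alternative analyses passed, with adjusted p between 0.0010 and 0.0455, as did 11 of 16 fits with 1 mouse left out. It did not pass without mouse 1, 7, 9, 11 or 13, and was 0.0807 at most, without mouse 1. Of the 4 stellate cell markers, whose sums did not overlap between these groups either, 2 fell with IMC.

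In pair-fed mice Per1 had 198, 551, 337 and 536 normalized counts in vehicle mice 10, 12, 14 and 16 and 586, 472, 559 and 408 in IMC mice 2, 4, 6 and 8. The groups overlapped, with a log2 difference of 0.42 (SE 0.26, limma adjusted p = 0.344). Averaged over both diets, Per1 was 1.56-fold higher with IMC (log2 0.65, SE 0.19, limma adjusted p = 0.0152), in 12 of 12 alternatives and in 16 of 16 fits with a mouse left out. The effect in ethanol-fed mice was not shown to differ from that in pair-fed mice (difference 0.46, SE 0.37, limma adjusted p = 0.598).

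Per2, a core component of the inhibitory complex, ranged from 125 to 503 normalized counts in Pair vehicle, from 76.8 to 340 in Pair IMC, from 234 to 537 in EtOH vehicle and from 217 to 309 in EtOH IMC. EtOH IMC was the narrowest of these ranges, and all 4 overlapped. None of its 7 contrasts passed, and the log2 difference averaged over diets was -0.52 with IMC (SE 0.31, limma adjusted p = 0.215).

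Per3, which is thought to be the least needed of the 3 period genes, had 114, 218, 1022 and 985 normalized counts in Pair vehicle mice 10, 12, 14 and 16. It had 94.6, 118, 227 and 36.5 in Pair IMC mice 2, 4, 6 and 8, and 75.3, 557, 132 and 777 in EtOH vehicle mice 1, 3, 5 and 7. In EtOH IMC mice 9, 11, 13 and 15 it had 75.7, 203, 274 and 95.5. The vehicle groups each split into a pair of low and a pair of high mice, which set their wide ranges. The Pair IMC mean was 4.02-fold lower than Pair vehicle (log2 -2.01, SE 0.78), yet the groups overlapped and the difference did not pass in limma (adjusted p = 0.111).

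The nuclear receptors fell with ethanol. Nr1d1, which encodes REV-ERB alpha, had 1019, 789, 1345 and 777 normalized counts in Pair IMC mice 2, 4, 6 and 8 and 382, 455, 620 and 711 in EtOH IMC mice 9, 11, 13 and 15. Each EtOH IMC mouse lay below each Pair IMC mouse. Nr1d1 was 1.82-fold lower with ethanol in IMC mice (log2 -0.86, SE 0.24, limma adjusted p = 0.0210; exact permutation p = 0.0286). The call held in 13 of 13 alternatives, with adjusted p from 0.0019 to 0.0444, and was lost without mouse 2, 6 or 9, with 0.0745 at most, without mouse 6. The summed red cell markers ranged from 135 to 293 in Pair IMC and from 22.9 to 101 in EtOH IMC (3 of 4 tested, and all 3 fell). The summed hepatocyte markers, from 873560 to 1187900 in EtOH IMC, were also below those of Pair IMC (0 of 5 passed in limma), and the part of either in the result was not tested.

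In vehicle mice, Nr1d1 ranged from 955 to 1705 in Pair and from 544 to 1081 in EtOH, with overlap, and was 0.61 lower on the log2 scale (log2 -0.61, SE 0.24, limma adjusted p = 0.105). Averaged over both treatments, Nr1d1 was 1.67-fold lower with ethanol (log2 -0.74, SE 0.17, limma adjusted p = 0.0043), and this held in 12 of 12 alternatives and 16 of 16 fits with a mouse left out. Its overlapping neighbour Thra did not pass in any ethanol contrast, with log2 differences of 0.41 in vehicle and -0.06 in IMC mice. With IMC, Nr1d1 was lower by 0.57 in ethanol-fed mice (log2 -0.57, SE 0.24, limma adjusted p = 0.0990), which did not pass.

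Nr1d2, which encodes REV-ERB beta, had 1509, 1447, 2209 and 2059 normalized counts in Pair vehicle mice 10, 12, 14 and 16 and 840, 1247, 736 and 1348 in EtOH vehicle mice 1, 3, 5 and 7. The groups did not overlap. The fall was 1.76-fold (log2 -0.81, SE 0.24, limma adjusted p = 0.0354; exact permutation p = 0.0286). It passed in 10 of 13 alternatives, with adjusted p from 0.0105 to 0.0664 on the deposited scale, and was lost without mouse 1, 5, 14 or 16, with 0.119 without mouse 5. Between these groups 2 of 4 stellate cell markers rose, and the summed pancreas markers ranged from 93.3 to 124 in EtOH vehicle, below Pair vehicle, with neither of the 2 tested passing in limma.

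In IMC mice, Nr1d2 ranged from 1179 to 1774 in Pair and from 700 to 1502 in EtOH, and the log2 difference of -0.41 (SE 0.24) did not pass (limma adjusted p = 0.266). The average over both treatments was 1.53-fold lower with ethanol (log2 -0.61, SE 0.17, limma adjusted p = 0.0136), in 16 of 16 fits with a mouse left out and in 11 of 12 alternatives. The exception was the deposited scale (adjusted p = 0.0555, against 0.0046 at the lowest).

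Dbp, the activator of D-box genes and a direct target of the ARNTL pair, spanned the widest range, from 20.2 to 995 normalized counts, or 49.4-fold per kilobase. Pair vehicle mice 10, 12, 14 and 16 had 99.2, 352, 995 and 674, and Pair IMC mice 2, 4, 6 and 8 had 187, 83.8, 260 and 20.2. EtOH vehicle mice 1, 3, 5 and 7 had 31.4, 298, 56.0 and 463, and EtOH IMC mice 9, 11, 13 and 15 had 20.7, 129, 136 and 67.1. Of the Pair vehicle mice, 3 lay above every Pair IMC mouse, and mouse 10 lay within the Pair IMC range. The mean log2 level was 4.06-fold lower with IMC in pair-fed mice (log2 -2.02, SE 0.91) and did not pass in limma (adjusted p = 0.171), nor did the 3.10-fold lower level with ethanol in vehicle mice (log2 -1.63, SE 0.91, adjusted p = 0.253).

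Nfil3, the repressor that competes for D-boxes, ranged from 130 to 267 normalized counts in Pair vehicle, from 198 to 304 in Pair IMC, from 127 to 387 in EtOH vehicle and from 158 to 245 in EtOH IMC. All 4 ranges overlapped. Its log2 differences lay between -0.34 and 0.29 in the 4 comparisons of groups, and none of its 7 contrasts passed.

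**Figure D2:**
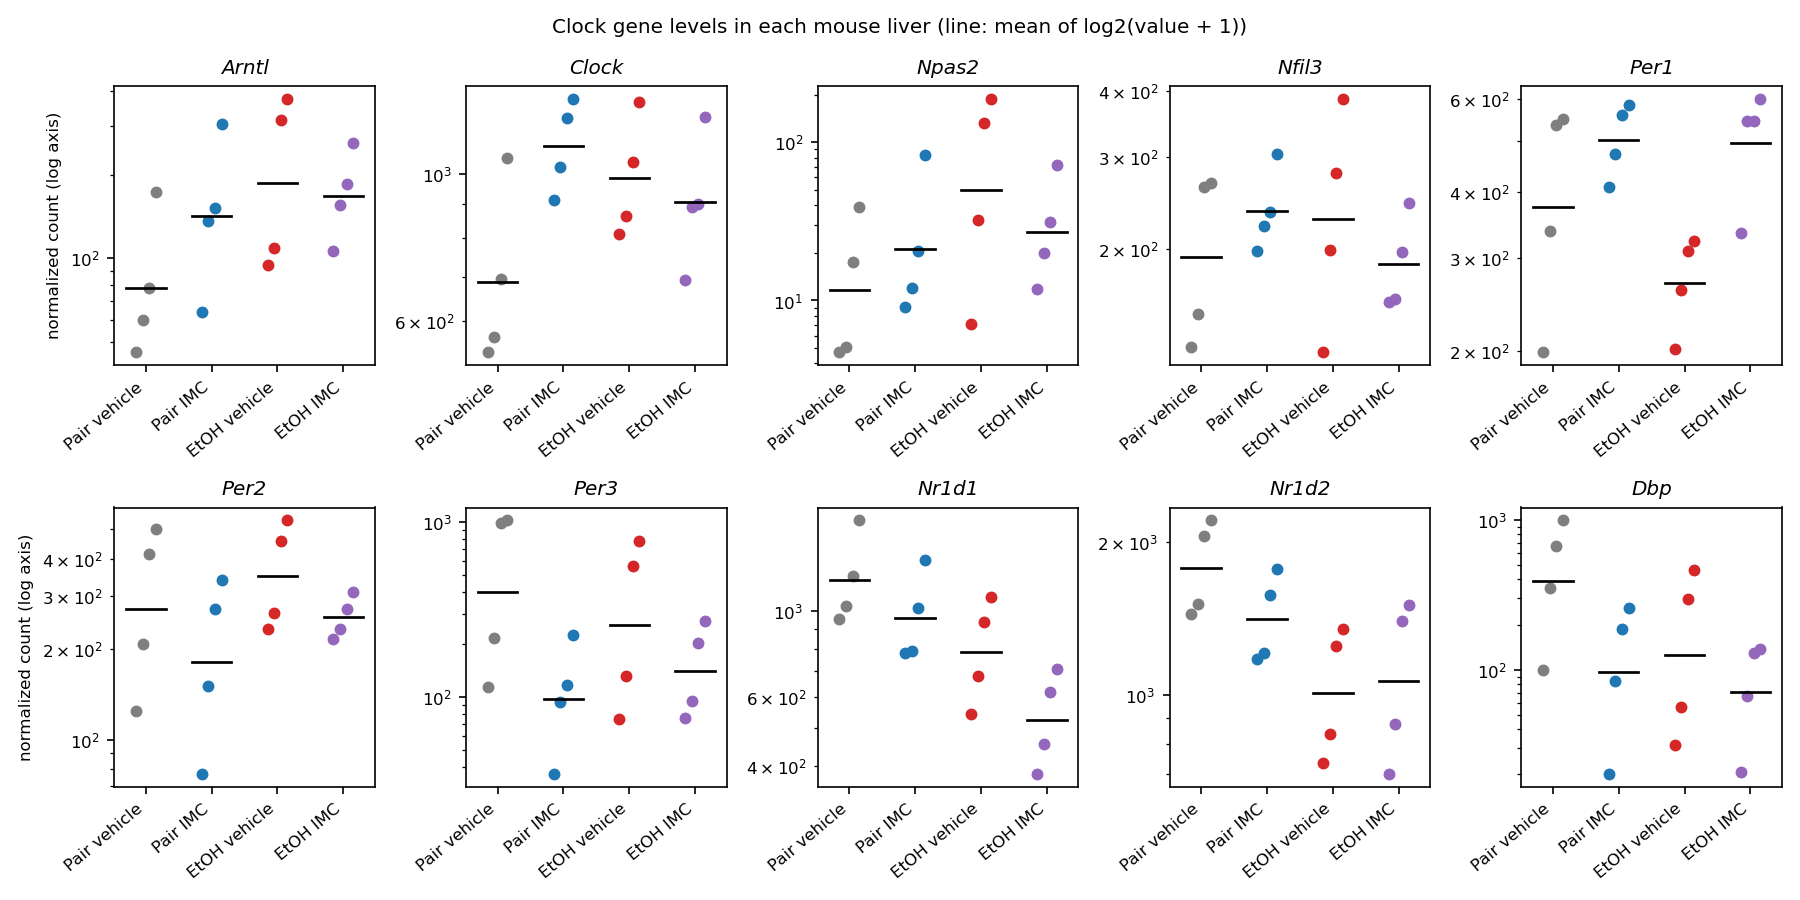
Normalized count of each clock gene (y axis, log axis, 1 panel per gene) in each of the 4 mice of each group (x axis, 1 point per mouse, line for the mean of log2 values). Per1 in EtOH IMC (334 to 601) lies above EtOH vehicle (202 to 323), Nr1d1 in EtOH IMC (382 to 711) lies below Pair IMC (777 to 1345), and Npas2, Per3 and Dbp span wide ranges within groups.

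Counted over the 10 genes, at most 2 passed in any contrast, and with so few genes nothing is read from these counts about the genes as a set. With IMC in pair-fed mice 1 gene rose (Clock), where 9.49% of the 12535 genes passed, and 0 of the 10 genes had groups that did not overlap, against 14.3% of all genes. With IMC in ethanol-fed mice 1 gene rose (Per1), where 21.5% passed, and 1 had groups without overlap, against 25.3%. No gene passed for the difference of the IMC effects between diets in limma, edgeR or DESeq2, where 1.11% of all genes passed, and 1 of the 10 had an unadjusted p under 0.05. With IMC averaged over both diets 1 gene rose (Per1), against 28.2% of all genes. With ethanol in vehicle mice 1 gene fell (Nr1d2), against 11.9%, and 1 had groups without overlap, against 19% of all genes. With ethanol in IMC mice 1 gene fell (Nr1d1), against 16.5%, and 1 had groups without overlap, against 19.2%. With ethanol averaged over both treatments 2 genes fell (Nr1d1 and Nr1d2), against 26.1%. Comparisons that use the same vehicle or IMC mice share those samples.

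The counts depended on single mice, above all on mouse 10 of Pair vehicle, which had the highest Arntl and the lowest Per1, Per2, Per3 and Dbp of its group. Without it, 4 genes passed with ethanol in vehicle mice, as Arntl (log2 1.63, limma adjusted p = 0.0472) and Clock (log2 0.72, adjusted p = 0.0199) rose and Per1 (log2 -0.78, adjusted p = 0.0316) and Nr1d2 fell. With IMC averaged over both diets 5 genes then passed, with Clock and Per1 higher and Nr1d1, Per3 (log2 -1.73, limma adjusted p = 0.0220) and Dbp (log2 -1.75, adjusted p = 0.0477) lower. Its label gives no ground to leave it out. The counts also differed between tools: edgeR on whole reads with TMM scaling passed 3 genes with IMC averaged over both diets (Dbp and Per3 lower, Per1 higher) and 0 with IMC in pair-fed mice, and DESeq2 passed 4 (Dbp, Nr1d1, Per1 and Per3) and 2 (Clock and Per3). With ethanol in vehicle mice, the deposited scale gave 2 rises (Arntl and Clock) and no fall, in place of the single fall of Nr1d2.

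**Figure D3:**
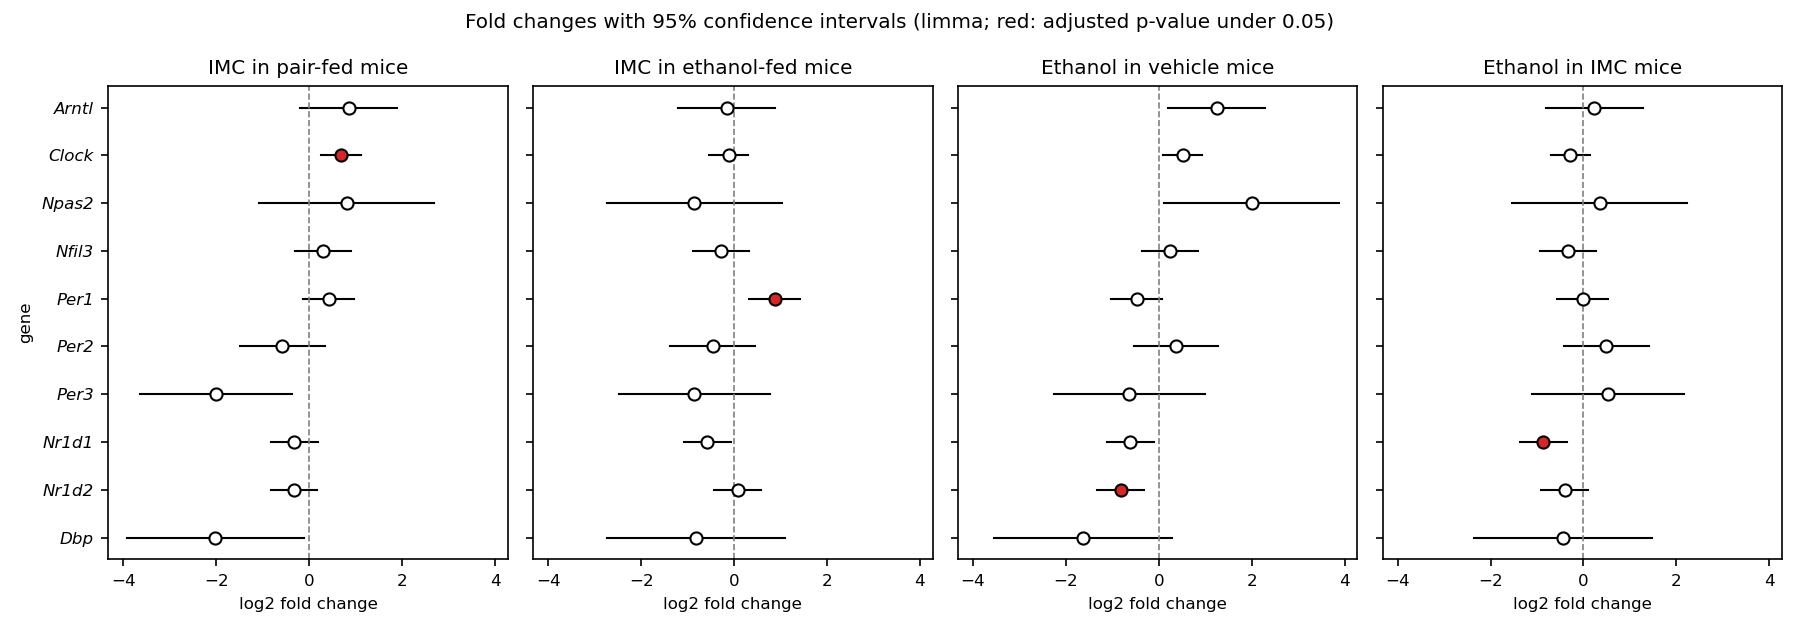
Log2 fold change (x axis) of each clock gene (y axis) with its 95% confidence interval from limma, in the 4 comparisons of groups of 4 mice. Red points passed at an adjusted p under 0.05 (Clock, Per1, Nr1d2 and Nr1d1, 1 in each panel), and the intervals of Npas2, Per3 and Dbp are several times as wide as that of Clock.

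The differences between mice of a group ran together across the genes. In each group the mouse with the highest Arntl (10, 8, 1 and 9) also had the highest Npas2 and the lowest Dbp and Per3. Deviations from the group means of Arntl and Dbp had opposite signs in 16 of 16 mice, with Pearson's r of -0.96 and Spearman's rho of -0.95. Without mice 8 and 10, whose Arntl deviations lay farthest from the median deviation, r was -0.94 over 14 mice. The log2 ratio of Arntl to Dbp ran from -4.41 in mouse 14 to 0.79 in mouse 10 within Pair vehicle, from -2 to 3.85 within Pair IMC, from -2.28 to 3.54 within EtOH vehicle and from -0.28 to 3.59 within EtOH IMC. Mice 10, 8, 1 and 9 thus lay at the high end of this ratio in their groups. These correlations are given as a description with no test, since the genes share the 16 libraries.

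**Figure D4:**
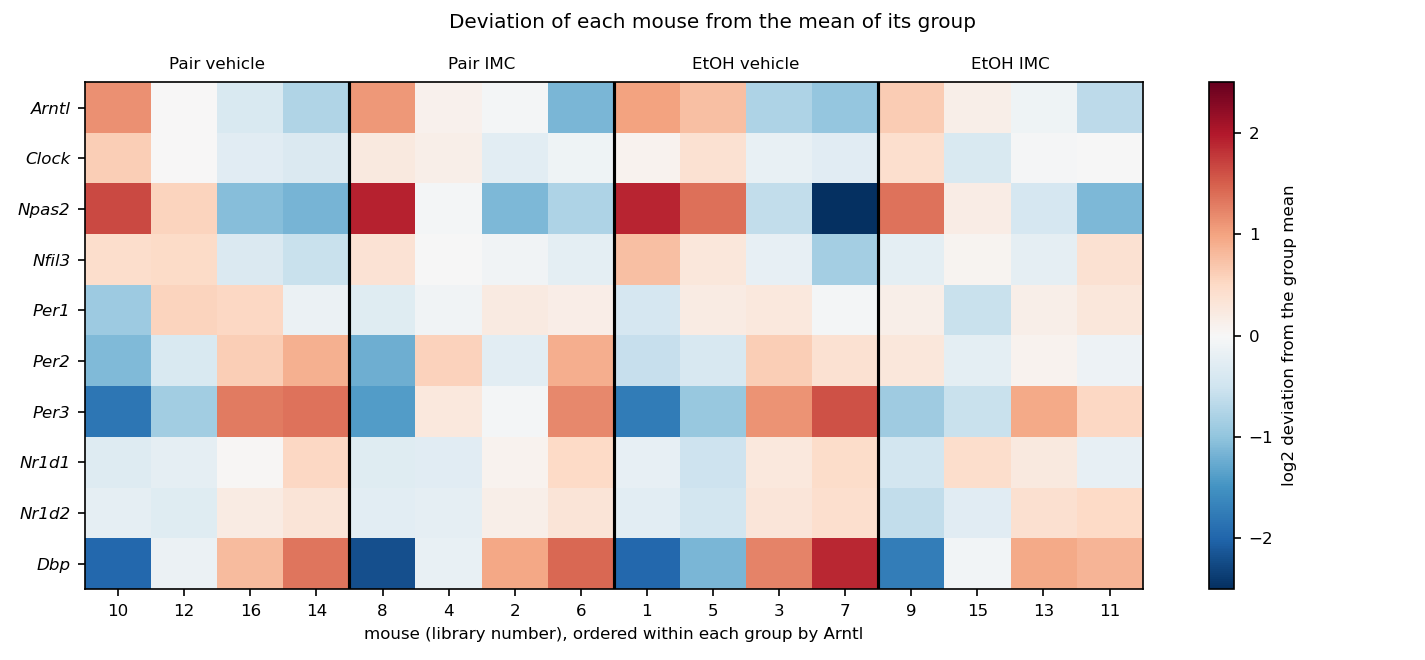
Log2 deviation of each mouse from the mean of its group (colour, red above and blue below the mean) for the 10 clock genes (rows), with mice (columns, library numbers) ordered within each group by Arntl. Where Arntl and Npas2 are red, as in mice 10, 8, 1 and 9, Per3 and Dbp are blue, and Arntl and Dbp have opposite signs in 16 of 16 mice.

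After the values were seen, the genes were described in 2 sets and Per1. Among Arntl, Clock, Npas2 and Nfil3 the 6 correlations of deviations were positive, from 0.54 to 0.91 (median 0.75). Among Per2, Per3, Nr1d1, Nr1d2 and Dbp the 10 correlations were also positive, from 0.51 to 0.93 (median 0.76), and the 20 between the sets were negative, from -0.96 to -0.52 (median -0.78). For comparison, the median size of the correlation with all genes tested was 0.25 for Arntl and 0.26 for Dbp, and 0.15% and 0.08% of genes passed a size of 0.9. Per1 stood apart, with correlations to the other members from -0.51 (Arntl) to 0.49 (Per3 and Dbp) and of 0.01 with Nr1d1. The sign was the same in all 4 groups for 29 of the 45 pairs and in 3 groups for 15. In all 15 of these the exception was EtOH IMC.

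**Figure D5:**
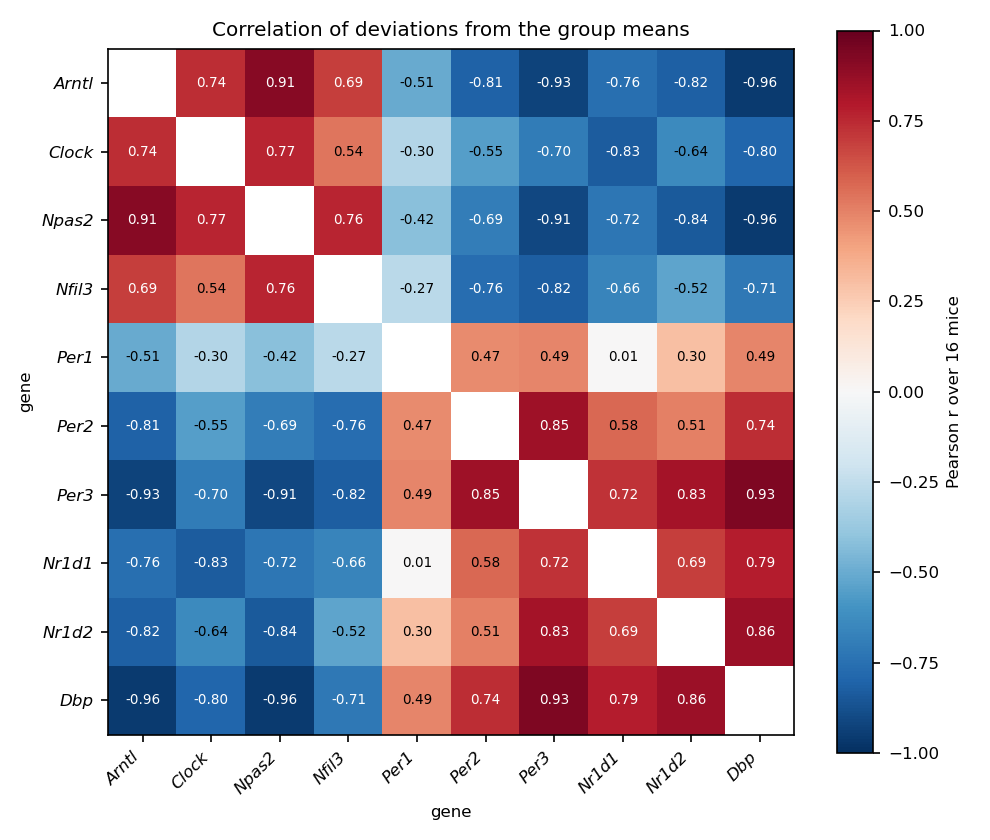
Pearson's r of deviations from the group means over 16 mice for each pair of the 10 clock genes (colour and printed value, red positive and blue negative). The upper left and lower right blocks are positive and the blocks between them negative, from -0.96 to -0.52, while the values of Per1 lie between -0.51 and 0.49.

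Other components of the clock followed the same mice to different degrees. Of 20 further components, 18 were tested. Tef, the close relative of Dbp, had the highest correlation of deviations with Dbp among all 12534 other genes (r = 0.95), and Cry2 (r = 0.86, rank 11), Ciart (r = 0.83, rank 24), Bhlhe40 (r = 0.70) and Hlf (r = 0.70) also varied with it. Ciart, an inhibitor of the ARNTL pair, ranged from 6.69 to 285 normalized counts in Pair vehicle, and Tef from 963 to 4049. Cry1 (r = -0.46), which peaks later than the other inhibitors, and Rora (r = -0.47) stayed under 0.5 in size. In all, 38.9% of these components exceeded 0.5 in size with Dbp, against 15.3% of all genes. Among 16 genes known to be rhythmic in liver, 14 did (87.5%), led by Wee1 (r = 0.88), a kinase of the cell cycle, Cyp2a5 (r = 0.86), a D-box driven cytochrome, and Insig2 (r = -0.89), a regulator of sterol synthesis. These lists were made from common knowledge of the clock with earlier results of these data known.

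Between groups, the numbers of other components that passed are given beside the share of all genes that passed, and nothing particular to the list is read from them. With IMC in pair-fed mice 1 of 18 passed, against 9.49% of all genes (Ncor1, a corepressor of REV-ERB, log2 0.39, SE 0.11, limma adjusted p = 0.0380, chosen after its value was seen). In ethanol-fed mice 4 of 18 fell in limma (3 passed in edgeR and 3 in DESeq2), where 21.5% of all genes passed and 11.1% fell. Among them were Hlf (log2 -0.59, SE 0.17, adjusted p = 0.0187), Bhlhe40 (log2 -0.80, SE 0.28, adjusted p = 0.0474) and Btrc (named after its value was seen). HLF is a D-box activator. Averaged over both diets 6 fell with IMC, Cry2 among them (log2 -0.53, SE 0.19, limma adjusted p = 0.0428), and 1 rose (Ncor1), where 28.2% of all genes passed. With ethanol 0 passed in limma in vehicle mice (1 at an unadjusted p under 0.05) and 0 in IMC mice (6 at an unadjusted p under 0.05), while edgeR called 0 and DESeq2 called 1 in each and limma called 11.9% and 16.5% of all genes. With ethanol averaged over both treatments 4 fell, among them Hlf, Bhlhe40 and, named after its value was seen, Csnk1e, where 26.1% of all genes passed. The median log2 difference over the 18 was -0.15 with IMC in ethanol-fed mice, against -0.0013 over all genes. Bhlhe41 had 0.86 to 38.7 normalized counts over all mice and was not tested.

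Per1 was set beside genes that respond to glucocorticoids, which induce it directly in liver. Fkbp5, a cochaperone of the glucocorticoid receptor, had 476 to 1053 normalized counts in EtOH vehicle and 1151 to 1761 in EtOH IMC. Its range was 899 to 1776 in Pair vehicle and 874 to 1587 in Pair IMC, and both overlapped that of EtOH IMC. Fkbp5 fell with ethanol in vehicle mice (log2 -0.83, SE 0.25, limma adjusted p = 0.0421), although the groups overlapped. It rose with IMC in ethanol-fed mice (log2 0.996, SE 0.25, limma adjusted p = 0.01), as did the kinase gene Sgk1 (log2 0.84, SE 0.23, adjusted p = 0.0163). In both, the groups did not overlap. These were 2 of the 8 genes of that list, and the others did not pass in this comparison, in which 21.5% of all genes passed and 10.4% rose, so the count is near the background. Over the 16 mice, 8 of the 8 genes had a positive correlation of deviations with Per1, from 0.25 to 0.55 (median 0.45, against 0.01 over all genes), whereas 4 of 8 were positive with Dbp. Fkbp5 was correlated with both (0.55 with Per1 and 0.71 with Dbp). Positive correlations with Per1 were not particular to this list. Of the 16 genes known to be rhythmic in liver, 14 were also positive with Per1 (-0.47 to 0.71, median 0.39).

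Over all 16 libraries, without removing group means, the 5 non-member genes with the pattern most like Arntl included Ubqln1 (Pearson's r = 0.91), Dtx4 (0.91), Lgalsl (0.90) and Chka (0.90), with Npas2 (0.91) second overall. Dbp (-0.93) was the last of the 12534 genes ranked. Those most like Nr1d1 were Il15ra (0.91), Mlycd (0.88), Ugt1a6a (0.88), BC021891 (0.87) and F3 (0.87), all ahead of Dbp (0.77, rank 88) and Nr1d2 (0.77, rank 91).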

How the data were processed

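Liver RNA libraries were made with a directional kit, and per the labels the submitters' processing notes name Trim Galore, FastQC, STAR, edgeR and mm10. The sources differ on whether reads were single-end or paired-end, and the counter and its strand setting are not given in the sources used here. As deposited, the signal values are whole reads per gene scaled by 1 size factor for each library, set separately in each diet. Dividing by the value of 1 read gave whole numbers (within 0.01) for every value. The table held 27212 rows for 24082 gene IDs, of which 430 had several identical rows, and 6209 had no read. Replicates of a group differed by a chi-square of at least 5.88 per gene, so none was a duplicate. p-values measure the spread between mice as labelled.

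Values were rescaled by a median ratio over 16 libraries. The 12535 genes with deposited values of 10 or more in 4 or more libraries were fitted with limma 3.58.1 in R 4.3.3 on log2(value + 1). The fit had group means and a mean-variance trend in 7 contrasts, tests were two-sided, and p-values were adjusted by Benjamini-Hochberg over all genes (threshold 0.05). Fold changes are on that scale and understate those of low genes. Pairs of groups were also compared by a two-sided exact permutation test of mean log2 values. Alternatives were other pseudocounts, filters and scalings, only the libraries of a comparison, no trend, leaving out each library, and count tests of whole reads with edgeR 4.0.16 and DESeq2 1.42.0. Tests on whole reads without library 15, where 1 read is worth 1.01, were chosen after seeing the data. The fits were tested on simulated data. The genes named are the 10 members, 9 further components, up to 4 genes of each of 5 lists by smallest p-value, and the 5 closest patterns to Arntl and Nr1d1. Some genes under these rules are not reported here. Members and lists were chosen with earlier results of these data known. Human samples were not analysed here.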

Additional observations from a re-analysis of the deposited data

Results flagged for a closer look

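Npas2 in mouse 8 of Pair IMC, at 83.1 normalized counts, stood apart from the other mice of its group, the nearest of which had 20.5 (gap over range 0.85, above Dixon's critical value for 4 samples). It was 1 of 40 sets of 4 values examined. These were normalized counts and not log2 values, so a skewed spread can itself raise a flag. Chance flags about 1 in 20 such sets where values are normally distributed. The same mouse had the highest Arntl and the lowest Dbp of its group.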

How the results depend on the processing

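No paired analysis was made because the labels used here do not say which mice were matched for feeding or shared a cage. With 4 mice per group and the spread described above, differences of Dbp, Npas2 and Per3 have intervals several log2 units wide, so a difference that did not pass is not shown to be absent. Low read counts limit Npas2 most.

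The number of the 10 genes that passed changed as follows, and the cause was not tested. With IMC in pair-fed mice it went from 1 to 0 with no filter on low values, quantile normalization, only the libraries of the comparison, no mean-variance trend, and edgeR with TMM, with upper quartile scaling or without library 15, and to 2 with DESeq2; it was 0 to 1 with a mouse left out. With IMC in ethanol-fed mice it went from 1 to 2 (Per1 and Nr1d1) with DESeq2 without library 15, and was 0 to 2 with a mouse left out. With IMC averaged over both diets it went from 1 to 3 with edgeR and TMM, 4 with upper quartile scaling and with DESeq2, and 3 with either tool without library 15, and was 1 to 5 with a mouse left out, 5 being without mouse 10. With ethanol in vehicle mice it went from 1 to 0 with no filter or no trend and to 2 on the deposited scale, and was 0 to 4 with a mouse left out, 4 being without mouse 10. With ethanol in IMC mice it was 0 to 1, and with ethanol averaged over both treatments 2 to 3, with a mouse left out. For the difference between diets it was 0 throughout.

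Signs turned only for log2 differences that did not pass in either analysis (adjusted p of 0.597 or more after turning). With edgeR and DESeq2 without library 15, Clock with IMC in ethanol-fed mice became 0.0066 and 0.0027. With IMC averaged over both diets, Npas2 became 0.0080 with a pseudocount of 0.1 and 0.054 with quantile normalization, and Nfil3 became -0.00403 with quantile normalization, -0.083 and -0.10 in edgeR with TMM and upper quartile scaling, -0.075 in DESeq2, and -0.0859 and -0.084 in edgeR and DESeq2 without library 15. Per1 with ethanol in IMC mice became 0.17 on the deposited scale, 0.014 with quantile normalization, 0.0065 and 0.030 in edgeR with TMM and upper quartile scaling, and 0.16 and 0.16 in edgeR and DESeq2 without library 15. With ethanol averaged over both treatments, Per3 became 0.14 on the deposited scale and 0.013 in DESeq2 without library 15, and Nfil3 became 0.14 on the deposited scale and 0.012 in edgeR with upper quartile scaling.

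With a mouse left out, the log2 difference with IMC in ethanol-fed mice ranged from -0.48 to 0.17 for Arntl, from -0.26 to 0.012 for Clock and from -0.087 to 0.28 for Nr1d2. That between diets ranged from -0.28 to 0.49 for Per2. With IMC averaged over both diets the ranges were -0.47 to 0.29 for Npas2 and -0.14 to 0.13 for Nfil3. With ethanol they were -0.00713 to 0.53 for Nfil3 in vehicle mice, and in IMC mice -0.14 to 0.60 for Arntl, -0.11 to 0.99 for Npas2, -0.12 to 0.17 for Per1 and -1.17 to 0.14 for Dbp. Averaged over both treatments they were -0.35 to 0.24 for Per3 and -0.17 to 0.094 for Nfil3.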

Other observations

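Among 10 heat shock and cold-inducible genes tested, 4 rose and 2 fell with ethanol in vehicle mice, and 4 rose and 1 fell in IMC mice, where 11.9% and 16.5% of all genes passed. Hsp90aa1, a cytosolic chaperone, had 1088 to 1442 normalized counts in Pair vehicle and 3065 to 5190 in EtOH vehicle, and was 3.20-fold higher with ethanol (log2 1.68, limma adjusted p = 0.00054). Rbm3, an RNA-binding protein induced by mild cold, was lower with ethanol in both vehicle mice (log2 -0.37, limma adjusted p = 0.0367) and IMC mice (log2 -0.56, adjusted p = 0.0025), with no overlap between groups. Hspd1, a mitochondrial chaperone, fell with IMC in ethanol-fed mice (log2 -0.52, limma adjusted p = 0.00041). None of the 10 had a correlation of deviations over 0.5 in size with Dbp, Arntl or Per1.

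Of 10 genes of the fasted liver, 3 fell with ethanol in vehicle mice and 3 in IMC mice, and 2 rose with IMC in pair-fed mice. Of all genes, 5.52% and 8.61% fell with ethanol in these mice and 4.32% rose with IMC in pair-fed mice. Fgf21, a hormone secreted by the fasted liver, had 24.5 to 79.1 normalized counts in Pair vehicle and 74.3 to 244 in Pair IMC. It rose with IMC in pair-fed mice (log2 1.85, limma adjusted p = 0.0185) and in ethanol-fed mice (log2 1.70, adjusted p = 0.0143), and fell with ethanol in vehicle mice (log2 -1.51, adjusted p = 0.0397). In each of these comparisons the groups overlapped (exact permutation p = 0.0571). Of 9 genes of the fed liver, 5 fell with IMC in ethanol-fed mice, where 11.1% of all genes fell and 21.5% passed in either direction. Scd1, a fatty acid desaturase, fell there (log2 -0.98, limma adjusted p = 0.0408) and rose in pair-fed mice (log2 1.07, adjusted p = 0.0475), with overlapping groups in both comparisons. The difference between diets passed (log2 -2.05, limma adjusted p = 0.0433), a contrast that is the same as low against high library numbers.

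Among the 16 rhythmic liver genes, Tsku, a secreted hepatokine, rose with IMC in pair-fed mice (log2 2.11, limma adjusted p = 0.0066) and with ethanol in vehicle mice (log2 2.31, adjusted p = 0.0032). Alas1, the rate-limiting enzyme of heme synthesis, rose with ethanol in vehicle mice (log2 1.08, limma adjusted p = 0.0243) and IMC mice (log2 1.61, adjusted p = 0.0015). Cyp7a1, the rate-limiting enzyme of bile acid synthesis, fell with IMC in ethanol-fed mice (log2 -1.56, limma adjusted p = 0.0263), although the groups overlapped (exact permutation p = 0.0857). Of the 4 genes named here, Cyp7a1 was the one with a weak correlation of deviations with Dbp (r = 0.23, against 0.58 for Alas1, 0.61 for Tsku and 0.86 for Cyp2a5). Cyp2a5 rose with IMC in ethanol-fed mice (log2 1.35, limma adjusted p = 0.0141).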
